A study of Mus musculus with 10 samples.

Results

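The genes Myc, Mycn and Mycl and the chromatin around them were followed through the reprogramming of mouse fibroblasts into pluripotent cells. The members are the peaks of accessible chromatin from 500 kb before to 500 kb after Myc, and within 100 kb of Mycn and of Mycl, in the mouse genome build mm10. Of the 685776 peaks in the 10 deposited lists, 620 fell into these windows. Peaks that overlapped between libraries were joined into regions, which gave 163 regions in the windows of 208851 in all. The Myc window held 101 regions, of which 3 overlapped Myc and 98 were distal. The Mycn window held 19, of which 2 overlapped Mycn and 17 were distal. The Mycl window held 43, of which 3 overlapped Mycl, 2 lay at the ends of the protein-coding genes Mfsd2a and Trit1, and 38 were distal. A region is called distal here when it lies outside the member gene and more than 1 kb from every end of a protein-coding gene, so the starts of noncoding genes count as distal.

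The assay was ATAC-seq, in which Tn5 transposase inserts adapters into accessible DNA, at 5 stages with 2 libraries each. MEF are embryonic fibroblasts of strain C57BL/6 x 129 that carry a polycistronic OKSM cassette (Oct4, Klf4, Sox2 and Myc) at Col1a1 and M2rtTA, which doxycycline activates, at ROSA26, grown in fibroblast medium without doxycycline. DAY3, DAY6 and DAY9 are cells of the same genotype and strain after 3, 6 and 9 days in ESC medium with 1 µg/ml doxycycline and 50 µg/ml ascorbic acid, and only the DAY6 and DAY9 cells were sorted, as SSEA+. ESC is the embryonic stem cell line V6.5, of the same strain background, without the cassette and kept on irradiated feeder cells. Every stage but ESC therefore carried extra copies of Myc coding sequence in its DNA, uninduced MEF included. Effects of sorting cannot be told apart from those of DAY6 and DAY9, nor those of the missing cassette from those of ESC. The labels do not say whether feeder cells were removed from ESC, or cells that had not responded from DAY3, and their share was not measured.

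Myc, Mycn and Mycl encode transcription factors of the basic helix-loop-helix leucine zipper class, which pair with Max and bind E-box sequences to drive growth and division. Myc lies in a stretch of the genome with almost no other protein-coding gene, often called a gene desert, in which enhancers far from the gene act on it in a cell-type-specific way. Beside it lies Pvt1, a long noncoding RNA gene that hosts several such enhancers. Myc is broadly used in dividing cells, Mycn is known from embryonic and neural progenitors and from pluripotent stem cells, and Mycl can replace Myc in factor mixes for reprogramming.

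Promoter sequences are shown where a promoter near these genes gained a peak or held one at nearly every stage. The entries come from RefSeq on GRCm38.p6, and 4 of the 7 genes looked up had one, of which Mycl's is not shown because it lies within the annotated gene. Each stretch is the 250 bases before the transcription start, 5′ to 3′ on the gene's strand, and capitals mark matches to the letters GGGCGG (GC box), GGGNGTG (the core bound by Klf factors) or TTTGGCGC (E2F), on either strand. The first, for Mycn, is chr12:12941837-12942086 on the minus strand and was overlapped by a peak in 9 of the 10 libraries. The second belongs to Gm35208, a long noncoding RNA gene that starts in the region -45.6 kb from the Mycn start, at chr12:12987131-12987380 on the plus strand. The third belongs to Gm12923, a long noncoding RNA gene that starts in the region +97.8 kb from the Mycl start, at chr4:123093772-123094021 on the minus strand.
Mycn: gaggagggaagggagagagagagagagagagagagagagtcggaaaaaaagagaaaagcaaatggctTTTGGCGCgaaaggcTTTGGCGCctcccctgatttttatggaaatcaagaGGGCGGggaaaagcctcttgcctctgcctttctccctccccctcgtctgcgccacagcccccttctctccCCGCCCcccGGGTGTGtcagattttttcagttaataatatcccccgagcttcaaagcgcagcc
Gm35208: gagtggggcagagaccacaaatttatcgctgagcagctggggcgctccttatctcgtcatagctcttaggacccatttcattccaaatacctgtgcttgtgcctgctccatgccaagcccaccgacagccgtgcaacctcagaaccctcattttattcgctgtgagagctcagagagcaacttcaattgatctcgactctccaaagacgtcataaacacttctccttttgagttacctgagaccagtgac
Gm12923: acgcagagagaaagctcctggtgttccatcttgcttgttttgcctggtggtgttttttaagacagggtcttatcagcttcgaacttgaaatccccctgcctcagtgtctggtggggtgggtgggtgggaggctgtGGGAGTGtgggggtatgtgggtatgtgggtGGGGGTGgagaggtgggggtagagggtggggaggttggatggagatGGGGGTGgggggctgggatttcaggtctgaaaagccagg
The Mycn stretch held 2 GC boxes, 1 Klf core and 2 E2F motifs, and the Gm12923 stretch 3 Klf cores that do not overlap one another. No searched motif was found in the Gm35208 stretch, which was overlapped by a peak in the 2 ESC libraries only. Matches were found in 32.7% of all 32851 promoters of this length for the GC box, in 26.1% for the Klf core and in 0.4% for the E2F letters. The E-box CACGTG (6.0% of promoters), TATAAA (12.4%), the octamer ATGCAAAT (1.6%) and ATTGTT (9.4%) were searched too and were absent from these 3 stretches. The motifs were chosen with the sequences in view, and a match of letters is not a measured binding site.

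The lists held between 45497 (DAY3 replicate 2) and 88980 (ESC replicate 2) peaks. Depth is not given, and the background pileup recovered from the lists ran from 2.33 (DAY6 replicate 2) to 8.32 (MEF replicate 2) fragments. The 2 libraries of DAY3 and the 2 of DAY9 differed by little more than counting noise (noise ratios of 1.33 and 1.42, against 3.61 to 8.16 at the other stages), so the tests took the mean of each such pair as 1 sample. The labels do not say that replicates were separate cultures, so p-values measure the spread between these libraries. Both libraries had a peak at 0 of 8 pluripotency genes in MEF, 1 at DAY3, 4 at DAY6, 6 at DAY9 and 7 for ESC. The fibroblast genes marked the stages poorly. Of 8, both libraries had a peak at 6 in MEF, 5 at DAY3, 4 at DAY6, 5 at DAY9 and 5 for ESC. Twist1, Col1a2 and Fn1 had one in all 10 libraries, and Postn in MEF only. Twist2 and Thy1 had one in both MEF libraries and in 1 ESC library. Prrx1 had one in 1 library each of MEF and DAY3, none at DAY6, and both at DAY9 and ESC. Zeb1 had one in 1 MEF library and in every later library. Of 5 epithelial genes 0, 2, 5, 4 and 5 had a peak in both libraries from MEF to ESC in stage order. Of 6 blood and endothelial genes Spi1 and Cd34 had a peak in all 10 libraries, Tek in 1 MEF library and every later one, Cdh5 in 1 library each of DAY3, DAY9 and ESC, and Ptprc and Pecam1 in none. The part of other cell types in the results was not tested.

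Chromatin was accessible at the start of Myc in every library. The region at the Myc start (chr15:61984296-61985839) overlaps the first bases of the gene, which the annotation places at chr15:61985341-61990361. The authors' fold for it, the summit pileup over the local background, was 3.98 and 2.72 in MEF, 3.96 and 4.19 at DAY3, 4.91 and 4.06 at DAY6, 4.85 and 4.10 at DAY9, and 5.12 and 5.10 in ESC. These folds lay between the percentiles 17.9 and 60.5 of their lists, so by fold the Myc start was never among the strongest peaks. A low fold need not mean a low summit, because fold divides by the local background. In MEF replicate 1 the summit pileup was 84 fragments at the Myc start. A distal region +43.2 kb from it had 59 there, at a fold of 12.8. A region farther into the gene, +1.7 kb from its start (chr15:61986764-61987409), also had a peak in all 10 libraries, with folds of 2.63 to 4.57. The third, +2.6 kb into Myc (chr15:61987546-61988255), had no peak in MEF, none at DAY3 replicate 1 and none in ESC. Its fold was 2.08 at DAY3 replicate 2, 2.42 and 2.36 at DAY6, and 2.43 and 2.67 at DAY9, at the percentile 8.9 or lower in each of these lists. Because the cassette carries Myc coding sequence, fragments of that sequence from the gene and from the cassette cannot be told apart. Exon positions were not available, so which of these 3 regions hold coding sequence is not known. All 3 are kept out of every count of distal elements.

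**Figure D1:**
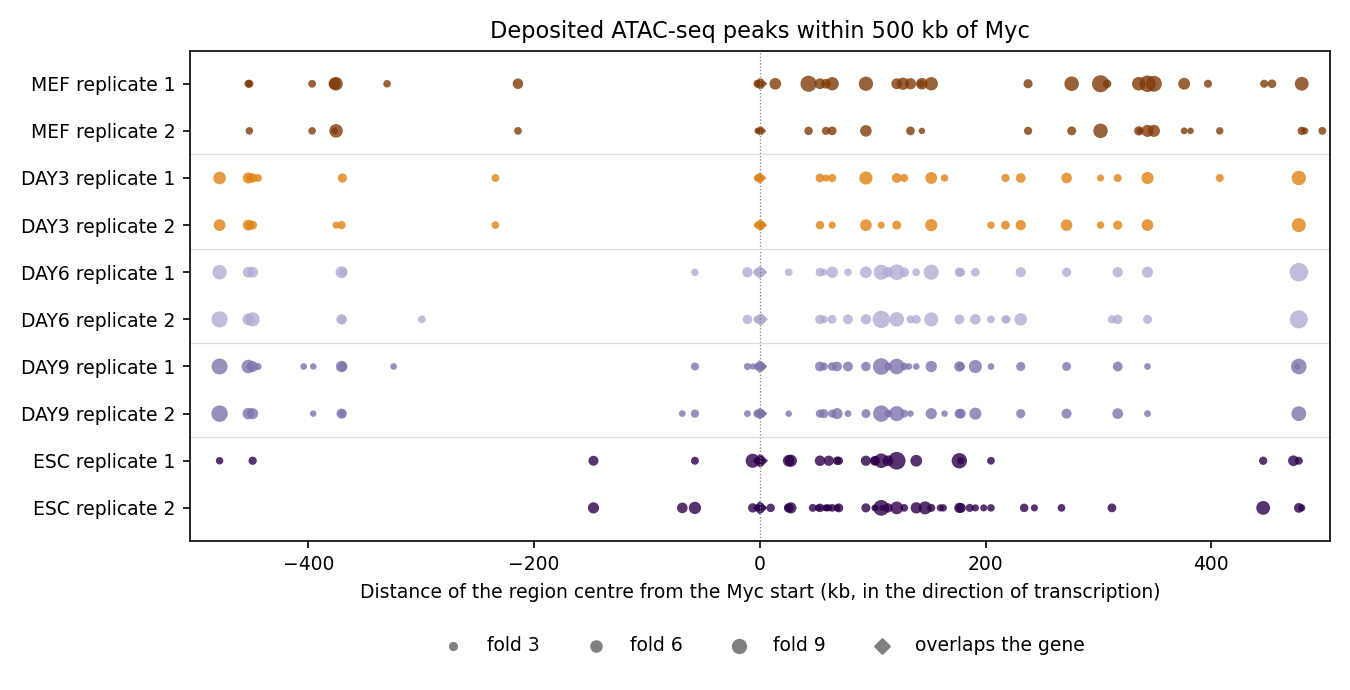
Each point is a peak region within 500 kb of Myc in 1 library (rows); the horizontal axis gives the distance of its centre from the Myc start in kb, colours mark the stage, point area grows with the authors' fold, and diamonds overlap Myc. ESC replicate 2 has 45 distal regions with a peak and ESC replicate 1 has 25, and the MEF peaks between +276.3 and +376.0 kb are absent from the ESC rows.

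No difference between stages in the number of distal peaks in the Myc window was detected beyond the spread of the libraries. It was 32 and 26 in MEF, 26 and 23 at DAY3, 30 and 32 at DAY6, 38 and 35 at DAY9, and 27 and 46 in ESC. The 2 ESC libraries were farther apart from each other than any of the stage means were. Of the variation among the 8 samples 40.5% lay between stages (exact permutation test, p = 0.69). That share was 93.6% without ESC replicate 1, 80.9% without ESC replicate 2 and 85.9% with every list cut to the length of the shortest (p of 0.124, 0.314 and 0.0976 by the same exact test). In bulk libraries such as these, fewer cells with an accessible region and less accessibility per cell cannot be told apart. Among equally wide windows around 21883 protein-coding genes, the Myc window ranked at the percentile 57.3 in MEF, 82.8 at DAY3, 76.0 at DAY6, 60.5 at DAY9 and 62.8 for ESC. Peaks near protein-coding gene ends were left out of every window. Windows with many such genes therefore had less sequence to count than the Myc window, and the ranks were not corrected for this. Its count of 24.5 at DAY3 (mean of the pair) stood against a median of 16 over all windows, and its count of 29.0 in MEF against 26.5.

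Which distal regions held the peaks differed by stage. Both libraries of a stage shared 20 distal regions in MEF, 18 at DAY3, 22 at DAY6, 28 at DAY9 and 22 for ESC. These are 20.4%, 18.4%, 22.4%, 28.6% and 22.4% of the distal regions, against 18.3%, 12.7%, 17.3%, 26.6% and 24.0% over the genome. The share was highest at DAY9 in both. The DAY3 and DAY9 pairs differed by little more than counting noise, so a rule asking for both libraries is met more easily there. Peaks present in both ESC libraries and in no MEF library, called gained from here on, were found at 18 of the 98 distal regions (18.4%), against 16.6% of all 187809 distal regions. Those present in both MEF libraries and in no ESC library, called lost, numbered 16 (16.3%, against 11.9%). Another 11 were transient, with a peak in both libraries of an intermediate stage but none in MEF or ESC (11.2%, against 10.2%), and 2 had a peak in all 10 libraries (2.92% of all distal regions). These shares lie near those of the genome as a whole. Of the remaining distal regions, 36 had a peak in 1 library only and 15 followed none of these patterns.

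Of the 18 gained elements of the Myc window 11 lay in Pvt1, as did 45 of all 98 distal regions, and 4 of those 45 were lost. The strongest was +107.6 kb from the Myc start, inside Pvt1 (chr15:62092461-62093409). It had no peak in MEF or at DAY3 replicate 1, a fold of 3.03 at DAY3 replicate 2, 11.5 and 14.6 at DAY6, 13.5 and 13.1 at DAY9, and 10.7 and 12.3 in ESC. From DAY6 on it stood between the percentiles 87.5 and 96.6 of its lists. Farther from Myc in Pvt1, the +113.6 and +176.8 kb elements also appeared from DAY6. The first had a peak in 1 of the 2 DAY6 libraries (fold 5.83) and the second in both (5.02 and 5.41). In ESC the +176.8 kb element reached 11.8 in replicate 1 and 5.85 in replicate 2.

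Other gained elements were seen in ESC alone, or far from the gene. The +27.5 kb element, between Myc and Pvt1 (chr15:62012486-62013137), had folds of 7.84 and 6.79 in ESC and no peak in any other library. The -147.4 kb element (chr15:61837275-61838690) had 5.58 and 6.76, and the +446.0 kb element 4.01 and 9.76, again in the 2 ESC libraries only. Closest before the gene was the -6.3 kb element, with 10.1 and 4.96 in ESC and 2.43 at DAY9 replicate 1. At the far end of the window, the +477.6 kb element (chr15:62462561-62463382) was the only 1 of the 18 with a peak in both DAY3 libraries. Its fold was 10.5 and 10.0 at DAY3, 16.3 and 15.6 at DAY6, 12.1 and 11.0 at DAY9, and 3.82 and 5.40 in ESC. By fold it thus stood higher at the intermediate stages (percentile 87.4 or higher of each list) than in ESC (percentiles 26.5 and 64.0). By the stage at which both libraries first had a peak, 1 of the 18 gained elements appeared at DAY3, 3 at DAY6, 4 at DAY9 and 10 for ESC, and 7 of these 10 had no peak in any library before ESC. As shares of the distal regions these are 1.02%, 3.06%, 4.08%, 10.2% and 7.14%, near the 1.42%, 2.34%, 2.54%, 10.3% and 8.43% of the genome.

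Of the 16 lost elements of the Myc window, 11 had no peak in either DAY3 library and 10 had none in any library after MEF. These are 11.2% and 10.2% of the distal regions, against 9.52% and 8.98% over the genome. The beyond-Pvt1 end of the window held 6 of them among its 22 distal regions, and 2 gained. The +349.2 kb element (chr15:62334113-62334882) had folds of 12.5 and 7.72 in MEF and no peak in any of the other 8 libraries. At +301.9 kb (chr15:62286638-62287816) the fold was 14.1 and 10.7 in MEF, 3.01 and 3.35 at DAY3, and no peak was listed later. The +343.5 kb element (chr15:62328219-62329406) kept a peak until DAY9, with folds from 13.4 and 7.72 in MEF over 7.77 and 7.34 at DAY3, 6.74 and 4.65 at DAY6, to 2.76 and 2.87 at DAY9, with none in ESC. The +43.2 kb element (12.8 and 4.18), the +276.3 kb element (10.6 and 4.61), the +335.8 kb element (9.51 and 4.93) and the +376.0 kb element (7.47 and 2.90) were MEF-only. On the other side of the gene, the -375.5 kb element (chr15:61609594-61610135) had 9.43 and 9.44 in MEF and 3.03 at DAY3 replicate 2.

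The transient elements were weaker than the strongest gained and lost ones. The -370.6 kb element (chr15:61614342-61615058) had a fold of 3.99 at DAY3 replicate 2, 7.74 and 6.05 at DAY6, and 7.07 and 5.74 at DAY9. The +231.2 kb element in Pvt1 (chr15:62215739-62217344) had 5.30 and 5.88 at DAY3, 5.83 and 8.24 at DAY6, and 4.75 and 4.78 at DAY9. It and the +317.1 kb element (3.81 to 6.33) were the 2 transient elements with a peak in both libraries of all 3 intermediate stages. The +271.8 kb element was highest at DAY3 (6.17 and 7.11), the +78.1 kb element ran from 2.87 to 5.41 at DAY6 and DAY9, and the -11.0 kb element had 5.84 and 5.11 at DAY6 and 3.12 and 2.87 at DAY9. The +217.7 kb element was present at DAY3 (3.97 and 4.47) and in 1 DAY6 library, and the -369.8 kb element in 5 libraries (3.84 to 4.90). The -478.7 kb element (chr15:61506198-61507125), chosen after its values were seen, had much the same course but kept a weak peak in 1 ESC library: 8.31 and 7.44 at DAY3, 10.6 and 12.8 at DAY6, 12.6 and 13.2 at DAY9, and 3.35 in ESC replicate 1.

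These counts moved with single libraries and with the length of the lists. Without ESC replicate 1, 38 distal regions of the Myc window were gained in place of 18, and without MEF replicate 2, 25 were lost in place of 16. With every list cut to its 45497 highest-scoring peaks, as many as the shortest list holds, 8 of 66 distal regions were gained and 12 lost, against 13.7% gained and 14.1% lost over the genome. More gains than losses were therefore counted with the lists as deposited and fewer with lists of equal length.

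Accessibility at the ESC elements of the Myc window grew through reprogramming. Of the 22 distal regions that both ESC libraries listed, 4 and 2 also had a peak in the MEF libraries (18.2% and 9.09%), 5 and 7 at DAY3, 12 and 9 at DAY6 (54.5% and 40.9%), and 14 and 12 at DAY9. The share was 13.6% ± 6.43 (SD, n = 2) in MEF, 27.3% at DAY3, 47.7% ± 9.64 (SD, n = 2) at DAY6 and 59.1% at DAY9. Every later stage mean thus lay above every earlier one, while DAY6 replicate 1 and DAY9 replicate 2 were equal, with 12 regions each. From MEF to DAY9 it rose by 45.5 percentage points (exact two-sided permutation test of the Jonckheere-Terpstra trend, 6 samples, p = 0.0111, 2 of 180 arrangements). Over all such regions of the genome the shares were 25.1%, 26.7%, 43.1% and 55.1%, so the rise was not particular to Myc. With lists of equal length the rise was 22.7 points over 11 regions (exact permutation test, p = 0.0833), and with peaks of at least the median score 30.0 points over 10 regions (p = 0.0944 by the same exact test). Without ESC replicate 1 it was 26.7 points over 45 regions and still passed. The lists held 74444 and 64295 peaks in MEF, 45766 and 45497 at DAY3, 65145 and 58969 at DAY6, and 77787 and 78308 at DAY9.

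The MEF elements showed no trend that passed the test after induction. Of the 20 distal regions that both MEF libraries listed, 35.0% had a peak in each DAY3 library, 20.0% and 30.0% at DAY6, 25.0% in each DAY9 library, and 10.0% and 20.0% in ESC. From DAY3 to ESC the share changed by -20.0 points (the same exact permutation test of trend, 6 samples, p = 0.0667). Over the genome the shares were 34.1%, 32.6%, 33.0% and 30.0%. With lists of equal length the change was -28.6 points over 14 regions and passed (exact permutation test, p = 0.00556). Leaving out MEF replicate 1, MEF replicate 2 or DAY6 replicate 1 also brought it past the threshold, with changes of -20.0, -17.2 and -20.0 points.

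**Figure D2:**
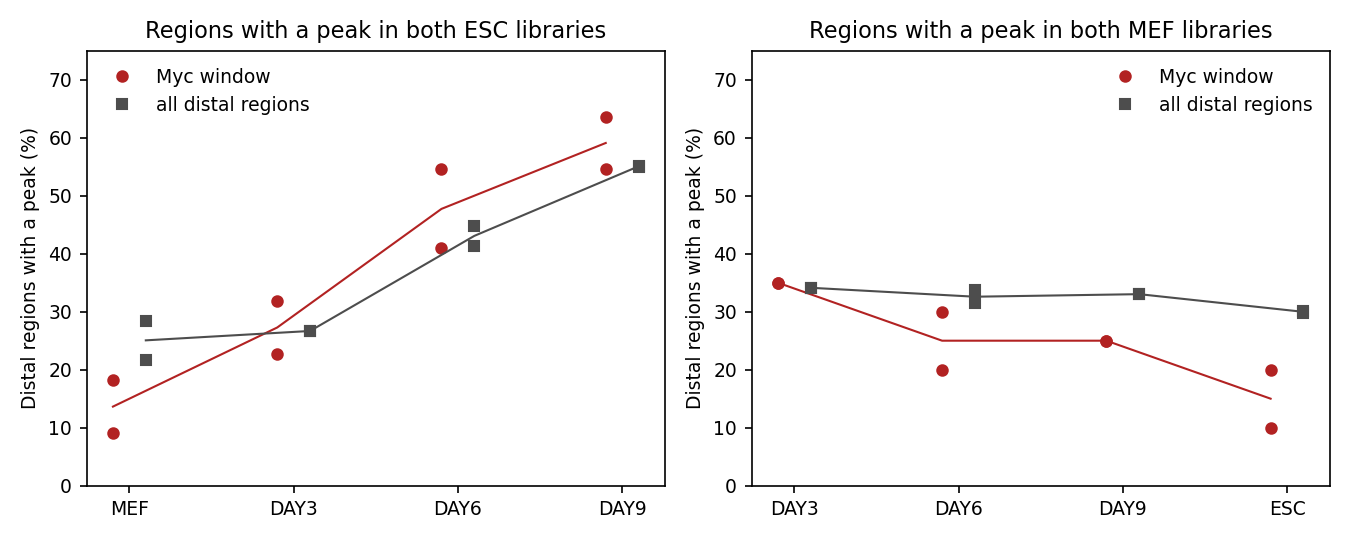
Share of distal regions with a peak, in %, by stage, among regions listed in both ESC libraries (left) or both MEF libraries (right). Circles are single libraries for the Myc window (22 and 20 regions), squares are the same for all distal regions of the genome, and lines join stage means; on the left both sets climb from MEF to DAY9, and on the right the Myc window ends at 10.0% and 20.0% in ESC.

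Around Mycn, more distal regions were gained than lost. The Mycn gene lies at chr12:12936093-12941836 on the minus strand, and distances are given in its direction of transcription. Distal regions with a peak numbered 2 and 4 in MEF, 6 and 4 at DAY3, 6 and 5 at DAY6, 8 and 7 at DAY9, and 12 and 10 in ESC. The 2 ESC libraries were the highest of the 10, and the counts of neighbouring stages overlapped or touched from MEF to DAY6. Of the 17 distal regions 8 were gained from MEF to ESC (47.1%, against 16.6% over the genome) and 1 was lost (5.9%, against 11.9%). With lists of equal length 5 of 14 were gained (against 13.7%) and 2 of 14 lost (against 14.1%), so the losses were then near the share of the genome. Leaving out any single library gave 8 to 11 gained and 1 or 2 lost.

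The 3 strongest Mycn elements appeared by DAY3, all on the side after the gene. The +14.2 kb element (chr12:12927030-12928165) had no peak in MEF and folds of 4.44 and 3.67 at DAY3, 16.5 and 12.9 at DAY6, 12.3 and 12.6 at DAY9, and 13.6 and 10.3 in ESC. The +32.0 kb element (chr12:12909334-12910264), at an end of the long noncoding RNA gene Gm40271, had 4.68 and 4.01 at DAY3, 13.1 and 15.2 at DAY6, 17.5 and 15.9 at DAY9, and 10.3 and 9.15 in ESC. From DAY6 on these 2 elements stood at the percentile 86.1 or higher of their lists. The +70.2 kb element (chr12:12871180-12872099) took another course: 6.34 and 5.26 at DAY3, 13.8 and 10.5 at DAY6, 10.2 and 11.3 at DAY9, but 3.66 and 3.43 in ESC.

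Of the other gained Mycn elements, 3 were seen in ESC alone. The -45.6 kb element (chr12:12986901-12987902) covers the promoter of Gm35208 shown above and had folds of 12.0 and 3.87 in ESC only. The +39.2 kb element (8.77 and 4.47) and the +100.9 kb element (6.47 and 5.88) were likewise seen in the 2 ESC libraries alone. The +68.1 kb element had 4.11 at DAY9 replicate 1 and 5.02 and 5.31 in ESC, and the -60.6 kb element had peaks in 7 libraries from DAY3 on, from 3.17 at DAY3 replicate 1 to 6.66 in ESC replicate 2. The lost element, -31.3 kb (5.44 and 3.97), was MEF-only. The 2 transient elements were +51.6 kb, with 3.01 at DAY3 replicate 1, 8.76 at DAY6 replicate 1 and 6.49 and 9.32 at DAY9, and +43.1 kb, with 3.12 and 3.58 at DAY9. Inside Mycn, the +3.0 kb region had no MEF peak. It had peaks of low fold at DAY6 replicate 1 (2.82), DAY9 (1.87 in replicate 2 and little more in replicate 1) and ESC (3.70 and 2.20). Their summit pileups were 60 at DAY6 replicate 1, 135 and 113 at DAY9, and 68 and 47 in ESC.

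Around Mycl peaks were most numerous at DAY9. The Mycl gene lies at chr4:122995588-123002490. Distal regions with a peak numbered 12 and 6 in MEF, 10 and 7 at DAY3, 18 and 12 at DAY6, 22 and 20 at DAY9, and 13 and 13 in ESC, so both DAY9 libraries lay above all others. Both libraries shared 19 of the 38 distal regions at DAY9 (50.0%, against 26.6% over the genome). They shared 6 in MEF, 7 at DAY3, 9 at DAY6 and 10 in ESC (against 18.3%, 12.7%, 17.3% and 24.0%). Of the 38, 9 were transient (23.7%, against 10.2% over the genome), 5 gained (13.2%, against 16.6%) and 3 lost (7.9%, against 11.9%). The DAY9 pair differed by little more than counting noise, so a rule asking for both libraries is met more easily there. The transient elements at -59.0, -13.4, +51.4, +65.2 and +85.5 kb qualified through that pair alone. Between DAY9 and ESC 9 regions lost their peak (23.7%, against 9.73%) and 1 gained one (2.6%, against 9.65%). With lists of equal length 8 of 22 were transient, none was gained (against 13.7% over the genome) and 1 was lost (against 14.1%). Without MEF replicate 2, 7 were lost. Without either ESC library 8 were gained in place of 5. No share over the genome was taken for transient regions in lists of equal length, or in any window without single libraries.

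Of the Mycl elements the strongest gained one was +97.8 kb from the start, at the promoter of Gm12923 shown above (chr4:123092592-123094100). It had no peak in MEF, DAY3 or DAY6 replicate 1, a fold of 6.01 at DAY6 replicate 2, 12.9 and 15.2 at DAY9, and 3.57 and 6.35 in ESC. The peaks of DAY6 replicate 2 and DAY9 overlapped the 250 bases with the 3 Klf cores, while the ESC peaks lay elsewhere in the element. The +87.4 kb element, in the same gene, had 3.65 at DAY3 replicate 1, 5.61 and 5.71 at DAY6, 5.76 and 5.71 at DAY9, and 3.35 and 4.03 in ESC. Closer to Mycl, the -7.4 kb element (3.32 to 4.07), the -11.9 kb element (2.42 to 3.83) and, farther off, the -93.3 kb element (2.94 to 3.25) were weak where present.

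The transient and lost Mycl elements had folds of at most 8.12. Of the transient ones, the -99.5 kb element had 3.37 and 5.11 at DAY6 and 5.76 and 4.30 at DAY9, and the -13.4 kb element 5.13 at DAY6 replicate 1 and 4.34 and 4.37 at DAY9. The -68.9 kb element was highest at DAY3 (8.12 and 7.28) and lower at DAY6 replicate 1 (3.37) and DAY9 (3.24 and 3.34). At +49.5 kb, in Trit1, a gene for a transfer RNA modifying enzyme, all 6 libraries of the intermediate stages had a peak, of 3.18 to 4.57. The +51.4, +65.2, +85.5 and -59.0 kb elements were present in both DAY9 libraries with folds of 3.00 to 4.30, and the +51.4 kb element also at DAY6 replicate 1 (5.61). Of the lost ones, the -81.3 kb element stayed until DAY6 replicate 1 (3.11 to 5.08), while the +47.4 kb element (4.98 and 3.22) and the +23.0 kb element (3.43 and 4.50) were MEF-only. Inside Mycl, the +5.6 kb region (chr4:123000895-123001498) had no MEF peak, folds of 4.14 and 4.08 at DAY3, 5.86 and 6.17 at DAY6, 5.38 and 5.26 at DAY9, and 3.65 and 2.54 in ESC. The +3.5 kb region had peaks in 7 libraries from DAY3 on (2.49 to 5.30), but none in MEF and none in ESC replicate 1.

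**Figure D3:**
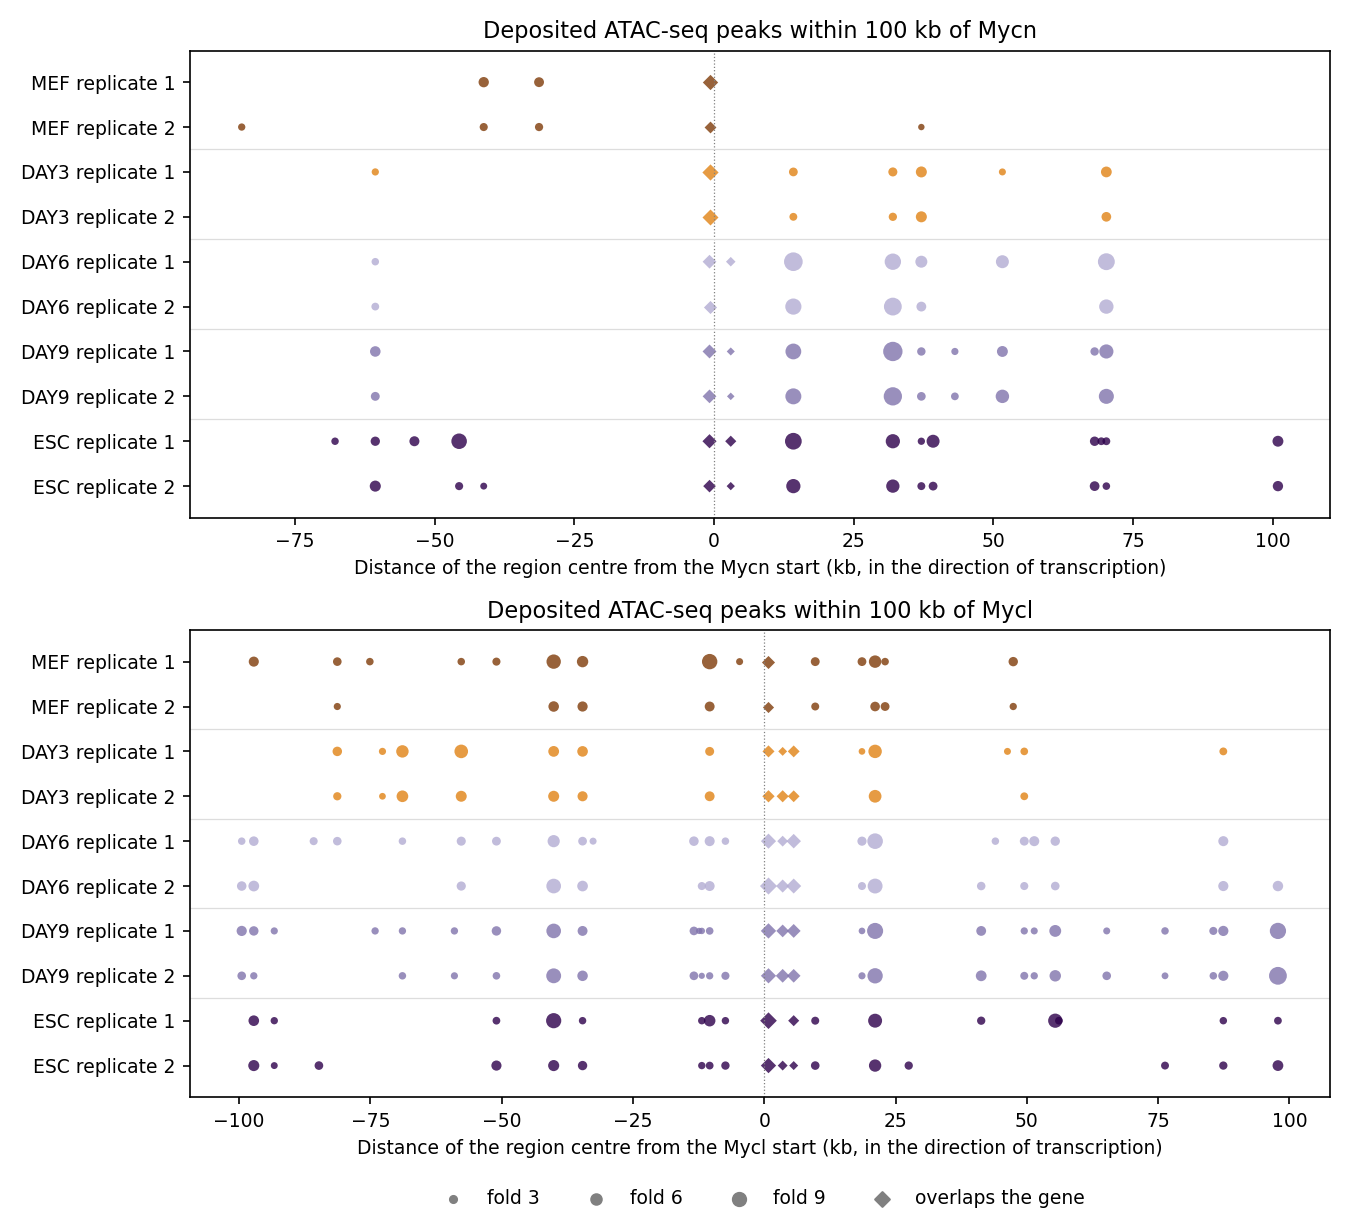
Peak regions within 100 kb of Mycn (top) and Mycl (bottom), 1 row per library; the horizontal axis is the distance from the gene's start in kb in its direction of transcription, point area grows with the authors' fold, and diamonds overlap the gene. The Mycn elements at +14.2, +32.0 and +70.2 kb start at DAY3, and the Mycl window is fullest in the DAY9 rows.

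**Figure D4:**
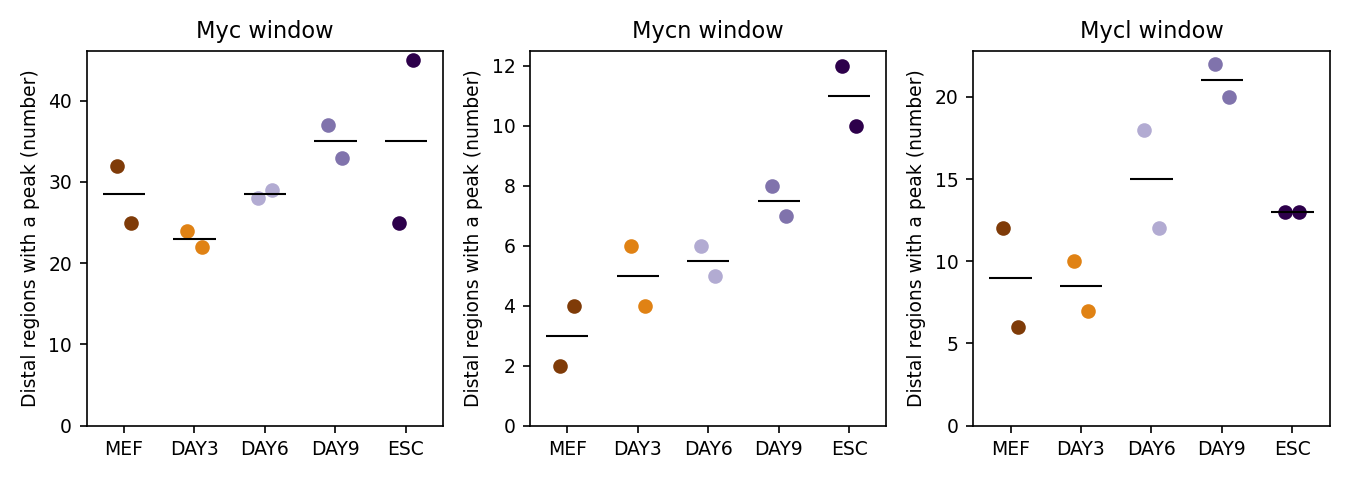
Number of distal regions with a peak in each library (points) in the Myc, Mycn and Mycl windows by stage, with the mean of the 2 libraries as a line. The 2 ESC points of the Myc window, 25 and 45, stand farther apart than those of any other stage, the Mycn counts are highest in ESC (12 and 10), and the Mycl counts are highest at DAY9 (22 and 20).

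Stepping from stage to stage, the 3 windows changed most at the first and the last step. The distal regions of the genome did so too, so this course was not particular to the 3 windows. From MEF to DAY3, 8 Myc, 3 Mycn and 3 Mycl distal regions were gained (8.2%, 17.6% and 7.9%, against 5.72% over the genome), and 12, 2 and 3 were lost (against 11.1%). From DAY3 to DAY6 the gains were 6, 0 and 3 (against 5.34%) and the losses 2, 0 and 1 (against 1.58%). The step from DAY6 to DAY9 brought 2, 1 and 4 gains (against 5.59%) and 0, 0 and 1 losses (against 1.02%). From DAY9 to ESC, 7 Myc, 3 Mycn and 1 Mycl regions were gained (against 9.65%), and 11, 2 and 9 were lost (against 9.73%). With 2 libraries a stage no exact test of a single region could pass 0.05, so these are counts without a test. Over all elements of the 3 windows, single libraries moved them by more than 1.5 times: gains from MEF to DAY3 went from 16 to 26 without DAY3 replicate 2 and losses from 17 to 30 without MEF replicate 2. Gains from DAY3 to DAY6 went from 9 to 16 and 21 without DAY6 replicate 1 and 2, and losses from 3 to 8, 6 and 5 without DAY3 replicate 2, DAY6 replicate 1 and DAY6 replicate 2. Gains from DAY6 to DAY9 went from 7 to 18 and 17 without DAY6 replicate 1 and DAY9 replicate 2, and losses from 1 to 5 without either DAY6 library and to 2 without DAY9 replicate 1. Gains from DAY9 to ESC went from 11 to 32 and 17 without ESC replicate 1 and 2.

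Summit heights could be compared at the regions with a peak in all 10 libraries, 10 of which lie in the 3 windows. Heights are summit pileups in fragments, recovered from the deposited fold and p-value and scaled by the median ratio between libraries over the 15359 such regions of the genome. At the Mycn start (chr12:12941299-12943982) the height was 65.0 and 52.9 in MEF, 102.3 and 98.6 at DAY3, 120.7 and 89.2 at DAY6, 164.2 and 157.1 at DAY9, and 115.2 and 104.4 in ESC. Both MEF libraries were the lowest of the 10 and both DAY9 libraries the highest. It rose from MEF to ESC by 0.90 on the log2 scale (SE 0.264, limma, adjusted p = 0.0295). At the Mycl start (chr4:122995319-122997535) the height was 48.7 and 50.4 in MEF, 74.9 and 83.2 at DAY3, 136.6 and 160.0 at DAY6, 190.3 and 192.0 at DAY9, and 82.1 and 114.4 in ESC. All later libraries lay above MEF, and the rise from MEF to ESC was 0.97 on the log2 scale (SE 0.263, limma, adjusted p = 0.0211). From MEF to ESC, limma called 10.6% of all these regions higher and 8.82% lower; of the 10 regions here 2 were higher and 2 lower.

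The Myc start followed another order. Its height was 91.0 and 59.2 in MEF, 97.5 and 96.2 at DAY3, 81.5 and 70.8 at DAY6, 63.8 and 52.4 at DAY9, and 99.3 and 178.4 in ESC, so that MEF overlapped the intermediate stages. The difference from MEF to ESC was 0.86 on the log2 scale and did not pass (SE 0.324, limma, adjusted p = 0.0772), and that from DAY9 to ESC was 1.20 (adjusted p = 0.0694). The +1.7 kb region inside Myc, where fragments from the cassette may be counted too, differed by 0.51 from MEF to ESC (limma, adjusted p = 0.282) and by 1.32 from DAY9 to ESC (adjusted p = 0.0505). The Mycl start differed by -0.98 on the log2 scale from DAY9 to ESC (limma, adjusted p = 0.0691). The -1.9 kb region before Myc, 1 of the 2 distal elements of the window with a peak in all libraries, differed by 0.30 from MEF to ESC (adjusted p = 0.542).

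The other distal element of the Myc window with a peak in every library, +94.0 kb, in Pvt1 (chr15:62078748-62079943), lost height. It had 79.0 and 87.0 in MEF, 86.8 and 61.8 at DAY3, 45.5 and 26.9 at DAY6, 19.8 and 18.4 at DAY9, and 30.6 and 40.4 in ESC. From MEF to ESC it fell by 1.24 on the log2 scale (SE 0.362, limma, adjusted p = 0.0295). The region -34.6 kb from Mycl, at the start of Mfsd2a, a lipid transporter gene, fell by 1.41 (SE 0.440, adjusted p = 0.0390 by limma), from 59.6 and 90.8 in MEF to 17.2 and 44.9 in ESC. The distal Mycl element at -10.4 kb had 69.3 and 63.0 in MEF, 16.9 and 17.0 at DAY9, and 49.0 and 26.9 in ESC, a difference of -0.86 from MEF to ESC that did not pass (adjusted p = 0.126). The remaining 2, -40.1 and +21.1 kb from Mycl, differed by -0.22 and 0.10 (adjusted p of 0.627 and 0.826).

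None of the 10 regions was called at any of the 4 single steps between neighbouring stages. Each step has DAY3 or DAY9, an averaged pair counted as 1 sample, on 1 side, and that sample is assumed to vary like the other stages, so the lack of calls says little. With the 10 libraries as separate samples 7 of the 10 regions were called from DAY9 to ESC and 1 from MEF to DAY3. Over the genome limma called 0.319% of regions higher and 0.0391% lower from MEF to DAY3, 0.00651% higher and 0.0% lower from DAY3 to DAY6, 0.0% in either direction from DAY6 to DAY9, and 4.88% higher and 4.19% lower from DAY9 to ESC. With unadjusted p under 0.05, 1458 regions passed from MEF to DAY3, 668 from DAY3 to DAY6, 675 from DAY6 to DAY9 and 4470 from DAY9 to ESC. The 4 calls between MEF and ESC were all lost when heights were scaled by background pileup, which gave differences of 1.19 at the Mycn start, 1.25 at the Mycl start, -0.95 at Myc +94.0 kb and -1.12 at Mfsd2a. Each of the 4 was also lost without some single library. The Myc +94.0 kb call was lost without any one of the 2 MEF and 2 ESC libraries (limma, adjusted p of 0.0593, 0.0870, 0.124 and 0.0514). The Mycn start was not called without MEF replicate 2 or either ESC library, Mfsd2a not without MEF replicate 2, ESC replicate 1 or either DAY6 library, and the Mycl start not without ESC replicate 2. The Myc start passed from MEF to ESC without MEF replicate 1 (1.17, limma, adjusted p = 0.0342) or without ESC replicate 1 (1.28, adjusted p = 0.0331). From DAY9 to ESC, 3 regions were called without either MEF library, and 2 without DAY9 replicate 1 or ESC replicate 1.

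**Figure D5:**
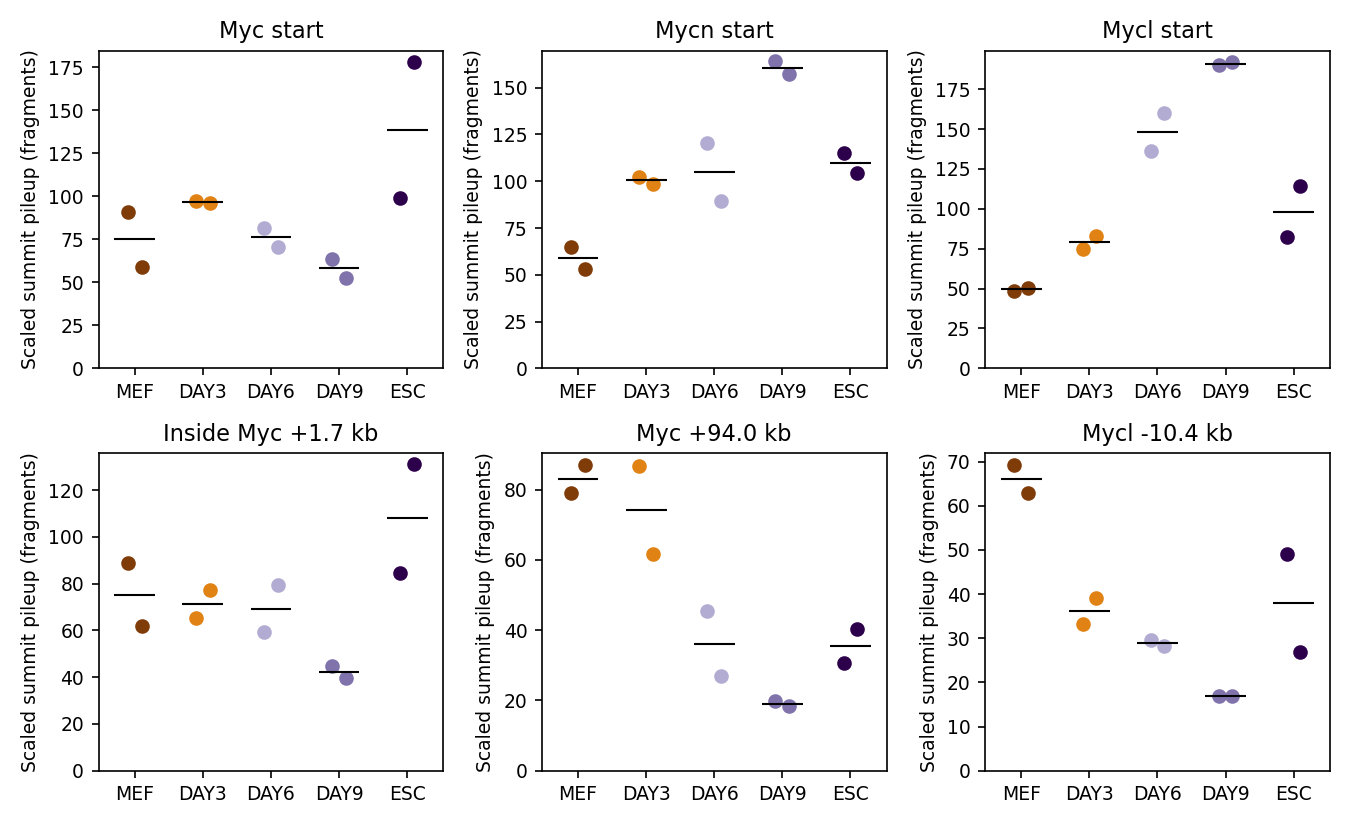
Scaled summit pileup in fragments (vertical axes, from 0) at 6 regions with a peak in all 10 libraries, by stage; points are libraries and lines the mean of the 2. The Mycn and Mycl starts are lowest in MEF and highest at DAY9 (164.2 and 157.1, 190.3 and 192.0), the Myc start has its highest value in ESC replicate 2 (178.4), and Myc +94.0 kb is lowest at DAY9 (19.8 and 18.4).

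Most partners and rivals of Myc bore peaks throughout. Of 11 genes of the network, 10 had a peak within 1 kb of a gene end in all 10 libraries, against 49.9% of 21883 protein-coding genes. They are Max, the obligate partner, the repressors Mxd1, Mxd3, Mxd4, Mxi1, Mnt and Mga, which also pair with Max, the related factors Mlx and Mlxip, and Zbtb17, through which Myc represses genes. Mlxipl, a glucose-responsive factor of the family, had a peak in 1 ESC library only. Of 10 genes widely given as direct Myc targets, 9 had a peak in all 10 libraries, among them Odc1 of polyamine synthesis, Ncl and Npm1 of the nucleolus, Cad of pyrimidine synthesis, and Cdk4 and Ccnd2 of the cell cycle. Ldha, of lactate production, had a peak in 1 ESC library only. No gene of either list was gained or lost from MEF to ESC, where 5.20% of all protein-coding genes were gained and 1.44% lost.

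The stage course of the distal peak count at Myc was shared by many windows. The 5 windows most like it, by Pearson's r over the 5 stage means, were those of Zfyve1, Scnn1b, Add3, Ubfd1 and Gm34298, with r of at least 0.9997. An r above 0.9 was found for 6604 windows (30.2%), all of which share the same 10 lists and their lengths. Around Zfyve1 the mean counts were 14.5 in MEF, 10.0 at DAY3, 16.5 at DAY6, 22.0 at DAY9 and 22.0 for ESC.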

How the data were processed

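ATAC-seq peak lists of 10 mouse libraries, 2 at each of 5 stages, were analysed. The submitters' processing notes name Bowtie2 2.3.2, deepTools 2.3.6, MACS2 2.1.1 and the build mm10, without settings; handling of duplicate reads and of the transposase offset is not given in the sources used here. The authors deposited 1 list per library, not called on pooled replicates. Each peak's score, fold (a linear ratio of summit to local background), −log10 p and −log10 q (p- and q-values on that scale) are as deposited by the authors. Folds were not scaled between libraries. The median fold of a list ran from 3.625 (MEF replicate 2) to 5.645 (DAY6 replicate 2), so courses of fold over the stages are descriptions only. Every deposited −log10 p was 5 or more, and gaps in the peak numbers (58.2% to 75.9% kept) show that peaks had been removed after calling.

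The members and lists were chosen with earlier results of these data known. Peaks overlapping by at least 1 base were joined into regions. Gene positions and promoter sequences are from RefSeq, GRCm38.p6, whose tables give no exons or introns. Named distal elements are, per window, those with a peak in all 10 libraries and the 8 of highest median fold among the gained, the lost and the transient; counts cover all. Whole summit pileups were recovered from fold and −log10 p (tolerance 0.01), log2 transformed, and fitted over 8 samples with limma 3.58.1 (R 4.3.3), with Benjamini-Hochberg adjustment at 0.05 over all 15359 regions with a peak in all 10 libraries. Shares and counts were compared with exact permutation tests. The fit and the calls were run on simulated data to check the code. The planted height changes were larger than those called here, and the simulated peak lists were copies of a single list with peaks removed. These runs therefore do not show how well changes of the size seen here are found. Depth is unknown, so a missing peak means only that none was listed. Alternatives were lists of equal length, higher scores, other distances, scalings and filters, 10 libraries as separate samples, a replicate block, and leaving out each library.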

Additional observations from a re-analysis of the deposited data

How the results depend on the processing

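Most alternatives left a result's direction and side of the threshold as they were. Many of them left out a library of a stage outside the comparison and could hardly move it, so their number says little about stability. Counts of elements moved with list length and with single libraries, and height calls from MEF to ESC with the scaling. Depth is unknown. With lists of equal length, the rise at the ESC elements of the Myc window was 22.73 points and that at higher scores 30.0, both no longer past the threshold. The change at the MEF elements passed with lists of equal length (-28.57), with 10 libraries as separate samples (-20.0) and with a replicate block (-20.0, exact permutation test, p = 0.0174). The cause was not tested. Over all elements of the 3 windows, distal or not, lists of equal length moved the losses from MEF to DAY3 from 17 to 10, the gains and losses from DAY3 to DAY6 from 9 and 3 to 5 and 5, those from DAY6 to DAY9 from 7 and 1 to 3 and 5, and the gains from MEF to ESC from 33 to 13 (15 losses, 20 before). Peaks of at least the pooled median score gave 8 losses from MEF to DAY3, 3 gains from DAY3 to DAY6, 11 gains and 0 losses from DAY6 to DAY9, 7 gains from DAY9 to ESC, and 12 gains and 9 losses from MEF to ESC. Counting distal elements alone, an alternative chosen after seeing the data, gave 31 gains and 20 losses from MEF to ESC.

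Leaving out 1 library at a time, the share of variation between stages in the Myc window's distal peaks ran from 36.79 to 93.57%, the rise at the ESC elements from 26.67 to 52.17 points and the change at the MEF elements from -25.0 to -15.0. Gains ran from 16 to 26 and losses from 17 to 30 (MEF to DAY3), from 9 to 21 and 3 to 8 (DAY3 to DAY6), from 7 to 18 and 1 to 5 (DAY6 to DAY9), from 11 to 32 and 23 to 31 (DAY9 to ESC), and from 33 to 57 and 20 to 33 (MEF to ESC), highest without ESC replicate 1 and without MEF replicate 2. Heights called numbered 1 to 4 from MEF to ESC and 0 to 3 from DAY9 to ESC.

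Scaling by background pileup left 0 height calls from MEF to ESC, shifted the median of all regions by up to 0.86 on the log2 scale (0.26 from MEF to ESC), and turned Mycl -40.1 kb to 0.07. Heights at Myc -1.9 kb ran from -0.09 (without MEF replicate 2) to 0.69 when single libraries were left out, and those at Mycl +21.1 kb from -0.03 (without ESC replicate 1) to 0.24. With 10 libraries as separate samples, and with the replicate block, 7 heights were called from DAY9 to ESC and 1 from MEF to DAY3. Libraries of the same number did not deviate together (correlations of -0.127 to 0.066 over 10 pairs of stages). Correlations with DAY3 or DAY9 could hardly be large, because those pairs differed by little more than counting noise, and ESC is another line. Whether the numbers pair the samples therefore cannot be decided.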
